A study of Mus musculus with 12 samples.

Results

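Metallothioneins and zinc transporters were followed as a group of 5 genes, Mt1, Mt2, Mtf1, Slc30a1 and Slc39a14, in immortalized brown adipocytes that carried either an empty vector or a construct for tSema4B and were left unstimulated or treated with norepinephrine (NE). The genes were chosen by name, with earlier results of these data known, and are the rows of the deposited table that carry these symbols. All 5 were among the 48321 genes listed, and 4 of them were among the 11998 genes with enough reads to test, while Slc30a1 was not. NE raised Mt1, Mt2 and Slc39a14 in both lines. tSema4B cells held less Mt1 than vector cells after NE and more Mt2 than vector cells at rest. The call of Mt2 at rest was lost when replicate 1 of either unstimulated group was left out. The level of Mt2 relative to Mt1 was higher with NE and with tSema4B in each comparison, without overlap between the libraries. These comparisons share libraries, however, and 3 libraries against 3 allow no exact p below 0.1.

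Metallothioneins are small cysteine-rich proteins that bind zinc and copper and buffer the free zinc of the cell. Their genes are switched on when zinc rises, through the zinc-sensing transcription factor MTF-1 (gene Mtf1), which binds metal response elements in their promoters, and they also respond to glucocorticoids and to cAMP. Slc30a1 encodes ZnT1, which exports zinc across the plasma membrane and is itself a target of MTF-1, and Slc39a14 encodes ZIP14, which brings zinc, iron and manganese into the cell. In adipose tissue metallothionein is known to rise with cold exposure and adrenergic stimulation.

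The cells were SV40-immortalized brown preadipocytes from a wild-type (WT) newborn mouse, transduced with the empty pLEX vector or with truncated Sema4B (tSema4B), which stands for the shed ectodomain of this membrane protein, and selected with puromycin. Each construct was represented by 1 stable line, so what is given as tSema4B against vector compares this pair of lines. Differentiation of both lines was induced with dexamethasone, 3-isobutyl methylxanthine, rosiglitazone, insulin and triiodothyronine on days 0 and 2, and only insulin and triiodothyronine were given afterwards, so all 4 groups had met a glucocorticoid early on. The cells were used on day 8, and NE was given at 2 μM for 6 h in serum-free medium. Each of the 4 groups (vector unstimulated, tSema4B unstimulated, vector NE, tSema4B NE) held 3 libraries, which the labels call technical replicates. P-values therefore measure the spread between these libraries, which may be technical, and do not cover the variation between independent transductions.

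Values are normalized read counts, the reads on a gene divided by the DESeq2 size factor of the library, and 1 read was worth 0.593 to 1.55 of them. Libraries held 2000780 to 5409583 reads on genes, and those of vector cells were deeper than those of tSema4B cells in either condition. Mitochondrial genes took 13.4% to 16.7% of the reads in vector libraries and 6.91% to 7.89% in tSema4B libraries. This share moves with every comparison of tSema4B with vector, and rescaling the libraries to the same nuclear total, added after it was seen, changed no call of a member. Sema4b, the transduced gene, was abundant in the libraries labelled empty vector too, at 116797 ± 6692 normalized counts at rest and 74266 ± 8219 after NE, against 281514 ± 31108 and 234276 ± 32374 in tSema4B libraries (log2 fold changes 1.27 and 1.65, limma adjusted p = 9.45e-10 and 1.21e-11). In the vector libraries at rest its level per kb, 29576 normalized counts, was above the 26824 of Fabp4, a major adipocyte transcript. The lines were therefore compared by the amount of Sema4b RNA and not by its presence, and the values here do not separate reads of the cells' own Sema4b from reads of the construct. Log2 fold changes are those of log2(normalized count + 1) in a limma model of all 4 groups, with Benjamini-Hochberg adjustment of the p-values over the 11998 genes. Genes were called higher or lower where the adjusted p did not exceed 0.05, and a stricter rule also required that the log2 value changed by 1 or more. With 3 libraries in each group, a two-sided exact permutation test can reach no p smaller than 0.1.

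Mt1 and Mt2 lie side by side on the plus strand of chromosome 8 (GRCm38, GENCODE M21), Mt2 at chr8:94172664-94173568 and Mt1 at chr8:94179082-94180327, 5513 bases apart. With Mt3 and Mt4 they form a cluster that spans 43131 bases. The RefSeq promoter entries (GRCm38.p6) of both genes are shown because these genes rose together with NE. Each line gives the 250 bases before the RefSeq start of the gene, 5′ to 3′ on the plus strand, with the cores of metal response elements in capitals. The Mt1 window is chr8:94178839-94179088 and the Mt2 window is chr8:94172368-94172617.
Mt1: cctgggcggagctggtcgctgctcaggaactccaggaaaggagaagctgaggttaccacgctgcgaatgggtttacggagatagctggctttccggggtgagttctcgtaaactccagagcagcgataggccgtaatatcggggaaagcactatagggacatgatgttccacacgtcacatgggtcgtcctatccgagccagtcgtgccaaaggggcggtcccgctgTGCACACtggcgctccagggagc
Mt2: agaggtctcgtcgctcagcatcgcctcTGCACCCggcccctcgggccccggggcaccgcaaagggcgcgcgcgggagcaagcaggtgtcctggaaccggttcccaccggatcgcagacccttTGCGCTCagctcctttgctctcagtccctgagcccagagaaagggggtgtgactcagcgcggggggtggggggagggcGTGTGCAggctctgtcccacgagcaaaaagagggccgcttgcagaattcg

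The letters searched were TGCACNC and TGCGCNC, on both strands, where N is any base. In these 250 bases Mt2 held 3 cores, Mt1 held 1, Slc30a1 held 1 and Mtf1 held 0, while 21.4% of the 32851 RefSeq entries held at least 1 and 1.26% held at least 3. The search was afterwards widened to the whole entry of 300 bases, which adds the first 50 bases after the start. In this longer window Mt2 held 4 cores, Mt1 held 3, Slc30a1 held 2 and Mtf1 held 0, against 25.7% of all entries with at least 1, 7.11% with at least 2, 1.97% with at least 3 and 0.517% with at least 4. Counted from the RefSeq start, the cores of Mt1 began at -23, 3 and 21 and those of Mt2 at -223, -128, -50 and 5. The start used for a gene sets what falls into the window, so these counts do not rank Mt1 against Mt2. GENCODE places the first base of Mt2 46 bases downstream of the RefSeq start, that of Mt1 at -7 and that of Mtf1 at -445 from it, and lists further Mt1 transcripts that begin downstream of the one used here. The full cAMP response element TGACGTCA was searched too and was found in 0 of the 4 members' entries of 300 bases (1.79% of all entries), and its shorter form TGACG stood once in Mt1 and once in Mtf1, and in 20.8% of all entries. Slc39a14 was not matched in this promoter table. A match of letters is a description and shows no binding.

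Mt1 was the most abundant of the 5 genes. Scaled to the length of the main transcript and averaged over the 12 libraries, its level was 2982 normalized counts per kb, against 773 for Mt2, 9.52 for Mtf1, 7.55 for Slc39a14 and 0.382 for Slc30a1. Of the other metallothioneins of the cluster, Mt3, the brain form, had 0 of the 39473125 reads of the 12 libraries, which allows a level of up to 0.0760 in 1000000 reads, and Mt4, the form of stratified epithelium, had 7 reads in all. Mt1 and Mt2 were thus the 2 metallothioneins tested, and their sum took 0.0443% ± 0.00223 of the reads of vector cells and 0.0416% ± 0.00560 of those of tSema4B cells at rest, 0.104% ± 0.0124 in vector cells after NE and 0.0719% ± 0.0143 in tSema4B cells after NE (SD, n = 3).

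The 3 libraries of unstimulated vector cells gave Mt1 values of 1217, 1164 and 1293 normalized counts, and those of unstimulated tSema4B cells gave 1102, 862 and 1153. After NE the values were 2365, 2630 and 3029 in vector cells and 1923, 1505 and 1402 in tSema4B cells. The order of the group means was vector NE (2675 ± 334), tSema4B NE (1610 ± 276), vector unstimulated (1225 ± 64.9) and tSema4B unstimulated (1039 ± 156), and no group overlapped with its neighbour in this order (exact permutation p = 0.1 for each, the smallest possible). These values rest on 557 to 4626 reads per library.

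NE upregulated Mt1 by 1.12 on the log2 scale in vector cells (SE 0.117, limma adjusted p = 1.38e-06) and by 0.63 in tSema4B cells (SE 0.117, adjusted p = 0.00152). After NE, Mt1 was lower in tSema4B than in vector cells, with -0.74 on the log2 scale (SE 0.117, adjusted p = 9.18e-05). Without stimulation the log2 fold change of Mt1 in tSema4B was -0.25 (SE 0.117) and missed the threshold (adjusted p = 0.184), although the 3 tSema4B libraries all lay below the 3 vector libraries. Without replicate 2 of tSema4B unstimulated it was -0.12 (adjusted p = 0.593). Whether NE moved Mt1 by less in tSema4B than in vector cells was tested by the interaction, which was -0.49 (SE 0.166) with an unadjusted p of 0.00739 and a limma adjusted p of 0.287.

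Mt2 was at 139.0, 144 and 172 normalized counts in vector cells at rest and at 257, 226 and 207 in tSema4B cells at rest. After NE it stood at 593, 615 and 755 in vector cells and at 700.2, 464 and 469 in tSema4B cells. The 3 unstimulated tSema4B libraries were all above the 3 vector libraries, whereas after NE the groups overlapped, with replicate 1 of tSema4B NE within the range of the vector libraries and the other replicates below it. From highest to lowest, the group means were 654 ± 87.7 in vector NE, 544 ± 135 in tSema4B NE, 230.0 ± 25.6 in tSema4B unstimulated and 152 ± 17.9 in vector unstimulated. The NE groups overlapped (exact permutation p = 0.3), and the other neighbours did not overlap (p = 0.1 each, the smallest possible).

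NE upregulated Mt2 by 2.10 on the log2 scale in vector cells (SE 0.154, limma adjusted p = 9.10e-09) and by 1.22 in tSema4B cells (SE 0.154, adjusted p = 1.97e-05). At rest Mt2 was higher in tSema4B than in vector cells, by 0.60 (SE 0.154, adjusted p = 0.0108). This call was lost when replicate 1 of vector unstimulated (0.54, adjusted p = 0.0572) or replicate 1 of tSema4B unstimulated (0.51, adjusted p = 0.0573) was left out. After NE the log2 fold change was -0.28 (SE 0.154, adjusted p = 0.206), and without replicate 1 of tSema4B NE it was -0.48 and passed (adjusted p = 0.0253). Other libraries moved it toward 0, to -0.18 without replicate 3 of vector NE (adjusted p = 0.555) and to -0.18 without replicate 2 of tSema4B NE (adjusted p = 0.501). The interaction of tSema4B and NE was -0.88 for Mt2 (SE 0.217, unadjusted p = 5.25e-04, limma adjusted p = 0.137), and it passed with DESeq2 on the recovered reads (-0.87, adjusted p = 0.0164) and without replicate 1 of tSema4B NE (-1.08, adjusted p = 0.0433).

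**Figure D1:**
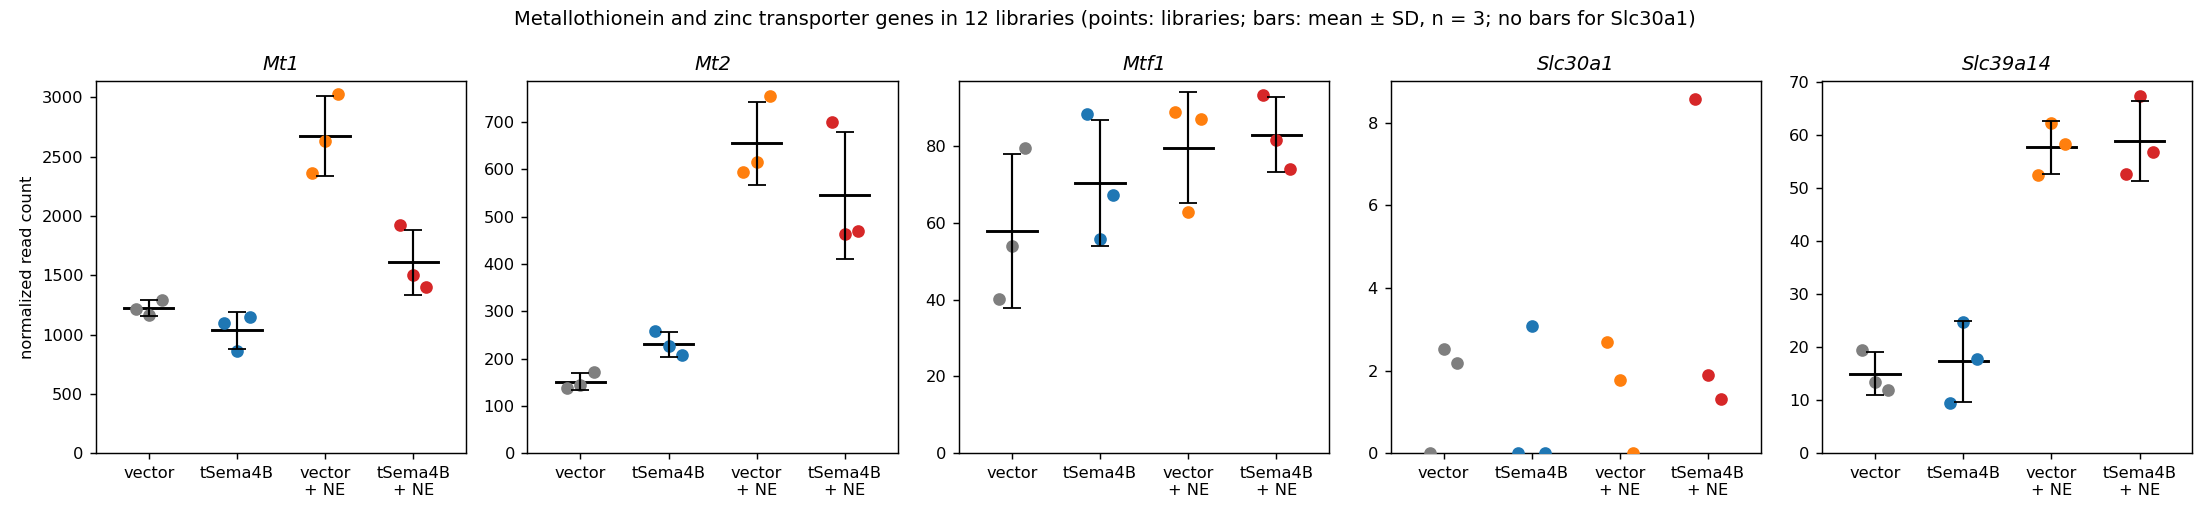
Normalized read counts of the 5 genes in each of the 12 libraries, with 1 panel per gene and its own axis from 0. Points are libraries, and horizontal bars with error bars give the mean ± SD (n = 3), which are left out for Slc30a1 because its libraries held 0 to 8 reads. The NE libraries of Mt1, Mt2 and Slc39a14 stand above the unstimulated libraries of the same line.

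Since both metallothioneins were read in the same library, the level of Mt2 relative to Mt1 does not depend on how the libraries were scaled. Mt2 was at 12.4% ± 0.946 of Mt1 in unstimulated vector cells (SD, n = 3, range 11.4% to 13.3%) and at 22.5% ± 4.20 in tSema4B cells at rest (17.9% to 26.2%). After NE it was at 24.5% ± 0.933 of Mt1 in vector cells (23.4% to 25.1%) and at 33.6% ± 2.80 in tSema4B cells (30.8% to 36.4%). The ratio was thus higher after NE than at rest within each line and higher in tSema4B than in vector cells within each condition, with no overlap between groups in any of these 4 comparisons. The 4 comparisons share groups, so they are not independent. How often other pairs of genes separate in this way was not computed.

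On the log2 scale the ratio of Mt2 to Mt1 was higher in tSema4B than in vector cells by 0.85 at rest (SE 0.174) and by 0.45 after NE (SE 0.0766). After NE it was higher than at rest by 0.99 in vector cells (SE 0.0715) and by 0.59 in tSema4B cells (SE 0.176). Each of the 4 comparisons had an exact permutation p of 0.1, two-sided, and an adjusted p of 0.1 over the 4. No smaller p was possible with 3 libraries in each group, so none could pass, and the 4 together were not tested.

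**Figure D2:**
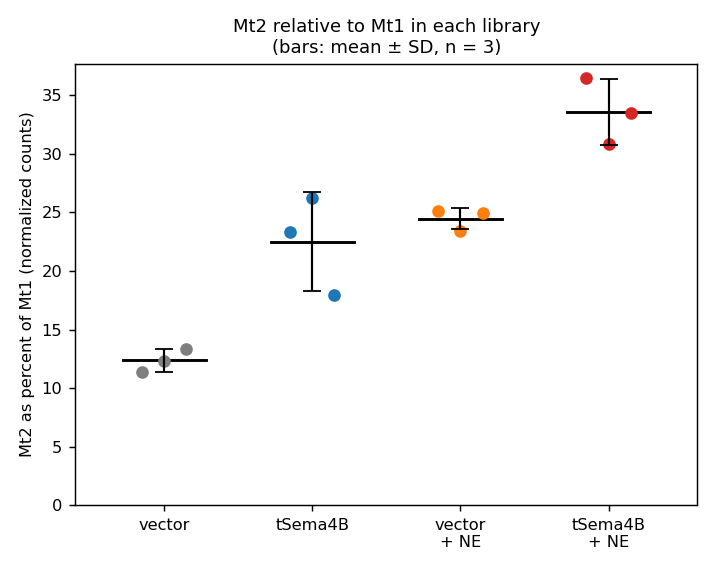
Mt2 as a percent of Mt1 in each library, from normalized counts, by group. Points are libraries and bars give the mean ± SD (n = 3). The unstimulated vector libraries lie between 11.4% and 13.3%, and the tSema4B libraries after NE lie between 30.8% and 36.4%.

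In the annotation 432 exon bases of Mt2 are shared with Gm45774, an antisense transcript on the opposite strand, and 22.4% of the 100-base stretches of Mt2 also occur in it. Whether strand was used in counting is not given in the sources used here, so reads of the pair cannot be told apart. This limit applies to the level of Mt2 per kb and to each ratio of Mt2 to Mt1 given above. For Mt1 no 100-base stretch was shared with another gene.

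Mtf1 (chr4:124802104-124849800, plus strand), which encodes the zinc sensor itself, was read at a low level. At rest it was at 40.2, 53.8 and 79.5 normalized counts in vector cells and at 88.2, 55.7 and 67.1 in tSema4B cells. After NE it was at 88.7, 62.8 and 87.1 in vector cells and at 93.3, 81.4 and 74.0 in tSema4B cells. The group means ran from 57.8 ± 19.97 in vector unstimulated through 70.3 ± 16.5 in tSema4B unstimulated and 79.5 ± 14.5 in vector NE to 82.9 ± 9.73 in tSema4B NE, and each group overlapped with its neighbour (exact permutation p between 0.4 and 0.8).

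No comparison of Mtf1 passed the test. The log2 fold change was 0.49 with NE in vector cells (SE 0.260, limma adjusted p = 0.262), 0.25 with NE in tSema4B cells (adjusted p = 0.656), 0.31 with tSema4B at rest (adjusted p = 0.499) and 0.07 with tSema4B after NE (adjusted p = 0.886). Its interaction was -0.24 (adjusted p = 0.875). Leaving out 1 library made none of these pass but moved them by over 1.5 times, to between 0.26 and 0.74, between 0.10 and 0.43, between 0.08 and 0.56 and between -0.09 and 0.16 in that order, and the interaction to between -0.49 and -0.0076. The extremes with NE in vector cells, with tSema4B at rest and in the interaction came without replicates 1 and 3 of vector unstimulated. The RNA of a transcription factor does not measure its activity, and 721 exon bases of Mtf1 are shared with 1110065P20Rik on the opposite strand.

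Slc30a1 (chr1:191906767-191913247, plus strand), the zinc exporter, was close to undetected. In the order of the replicates it had 0, 3 and 2 reads in vector cells and 0, 2 and 0 in tSema4B cells at rest, 4, 3 and 0 in vector cells after NE and 8, 2 and 1 in tSema4B cells after NE. Summed over each group this came to 0.531 in 1000000 reads on genes (exact Poisson 95% interval 0.173 to 1.24), 0.296 (0.0358 to 1.07), 0.464 (0.187 to 0.957) and 1.34 (0.667 to 2.39). The intervals cover counting error only, since PCR copies of 1 molecule were counted as separate reads. Slc30a1 had too few reads for the main fit. When it was fitted without the filter on low values no comparison passed. The smallest limma adjusted p was then 0.530, for NE in tSema4B cells, and nothing is read from so few reads. The highest group value came from 1 library with 8 of the 11 reads, and 468 exon bases of Slc30a1 are shared with the antisense gene 1700034H15Rik.

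Slc39a14 (chr14:70303469-70351425, minus strand), the zinc, iron and manganese importer, was low at rest and rose with NE in both lines. At rest it was at 19.5, 13.5 and 12.0 normalized counts in vector cells and at 9.53, 24.8 and 17.8 in tSema4B cells. After NE it was at 52.4, 62.2 and 58.3 in vector cells and at 52.5, 67.2 and 56.8 in tSema4B cells. All 6 NE libraries were above all 6 unstimulated libraries, and within each condition the 2 lines overlapped. These values rest on 8 to 105 reads per library, and for this gene no 100-base stretch was shared with another gene.

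NE upregulated Slc39a14 by 1.90 on the log2 scale in vector cells (SE 0.352, limma adjusted p = 0.00107) and by 1.79 in tSema4B cells (SE 0.352, adjusted p = 0.00262). Between tSema4B and vector cells its log2 fold change was 0.13 at rest (SE 0.352, adjusted p = 0.858) and 0.03 after NE (SE 0.352, adjusted p = 0.972), and the interaction was -0.11 (SE 0.499, adjusted p = 0.971). In the order of the group means, tSema4B NE (58.9 ± 7.55) overlapped with vector NE (57.6 ± 4.94, exact permutation p = 0.9), which did not overlap with tSema4B unstimulated (17.4 ± 7.62, p = 0.1), and this group overlapped with vector unstimulated (14.99 ± 4.01, p = 0.7).

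**Figure D3:**
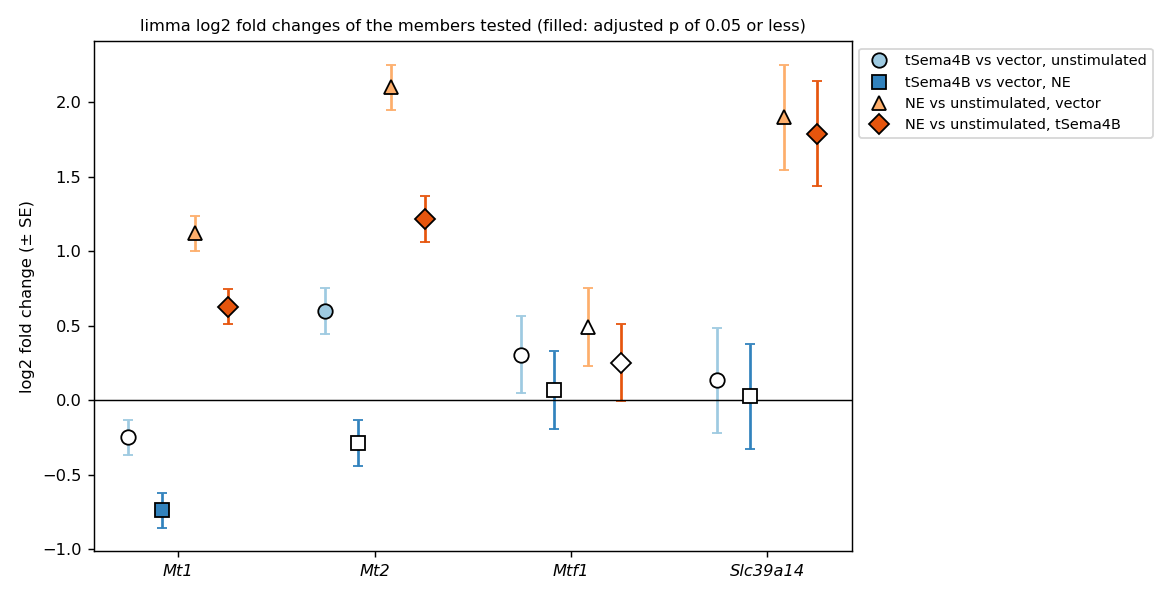
Log2 fold changes (± SE) from limma of the 4 members tested, in the 4 comparisons of 2 groups. Filled symbols passed the adjusted p threshold of 0.05. Both NE comparisons are filled and above 0 for Mt1, Mt2 and Slc39a14, and of the tSema4B comparisons only Mt2 at rest (0.60) and Mt1 after NE (-0.74) are filled.

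The members were chosen with earlier results of these data known, so the counts here describe them and do not test the set. Counted over the 4 members tested, NE raised 3 in vector cells (Mt1, Mt2 and Slc39a14) and lowered 0, where 6.82% of all genes tested were higher and 4.78% lower. By the stricter rule the same 3 were higher and 0 lower, against 1.66% and 0.975% of all genes. In tSema4B cells NE again raised these 3 and lowered 0, against 3.68% and 2.58% of all genes, and by the stricter rule it raised 2 (Mt2 and Slc39a14) and lowered 0, against 1.31% and 0.758%. With tSema4B at rest 1 member was higher (Mt2) and 0 lower, against 5.64% and 7.39% of all genes, and 0 members met the stricter rule in either direction, against 1.11% and 2.71%. With tSema4B after NE 0 members were higher and 1 lower (Mt1), against 9.79% and 11.2%, and 0 met the stricter rule in either direction, against 2.03% and 3.73%. In the interaction 0 members passed and 0.025% of all genes did (3 genes by limma, with 1227 at an unadjusted p under 0.05), while 2 members (Mt1 and Mt2) were at an unadjusted p under 0.05. The comparisons of vector NE with vector unstimulated and of tSema4B with vector share libraries, so their values are not independent.

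The other zinc transporters were taken by family. Of the 10 Slc30 genes, the ZnT family that carries zinc out of the cytosol, 5 were tested and 0 passed in any of the 5 limma comparisons. Of all genes 2.58% to 11.2% passed in each direction of the 4 comparisons of groups and 0.025% in the interaction, so nothing is read from 0 of 5. The 3 tested members with the highest level per kb were Slc30a5 (83.9 normalized counts per kb), Slc30a9 (62.5) and Slc30a6 (49.2), and Slc30a2 and Slc30a8 had 0 reads. The median log2 fold change of the 5 with NE was 0.19 in vector cells and 0.17 in tSema4B cells, beside medians of -0.02 and -0.0048 over all genes tested. With tSema4B it was -0.02 at rest and 0.01 after NE, beside -0.0025 and -0.01 over all genes.

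Of the 14 Slc39 genes, the ZIP family that carries zinc into the cytosol, 10 were tested. With NE 3 were higher in vector cells and 2 in tSema4B cells (6.82% and 3.68% of all genes), and 0 were lower. Beside Slc39a14 these were Slc39a10, a plasma membrane importer that MTF-1 is known to repress, which rose by 0.67 in vector cells (limma adjusted p = 0.00217) and by 0.65 in tSema4B cells (adjusted p = 0.00393), and Slc39a1, which rose by 0.39 in vector cells (adjusted p = 0.0220). Slc39a10 was at 318 ± 27.5 normalized counts in unstimulated vector cells and 505 ± 53.3 after NE, and at 363 ± 63.1 and 568 ± 74.6 in tSema4B cells. The median of the 10 with NE was 0.16 in vector cells and 0.21 in tSema4B cells.

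With tSema4B at rest 2 Slc39 genes were higher (5.64% of all genes) and 0 lower, and after NE 0 passed in either direction. Slc39a8, the closest relative of Slc39a14, was at 24.8 ± 11.2 normalized counts in vector cells and 57.9 ± 12.5 in tSema4B cells at rest (log2 fold change 1.29, SE 0.391, limma adjusted p = 0.0311), and after NE its log2 fold change was 0.81 (adjusted p = 0.156). Slc39a6, which imports zinc at the plasma membrane, was at 219.7 ± 7.85 and 324 ± 36.2 at rest (0.55, adjusted p = 0.0193). The median of the 10 with tSema4B was 0.13 at rest and 0.21 after NE. By level per kb the leading ZIP genes were Slc39a1 (324 normalized counts per kb), Slc39a10 (79.7) and Slc39a6 (73.5), all above the 7.55 of Slc39a14.

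**Figure D4:**
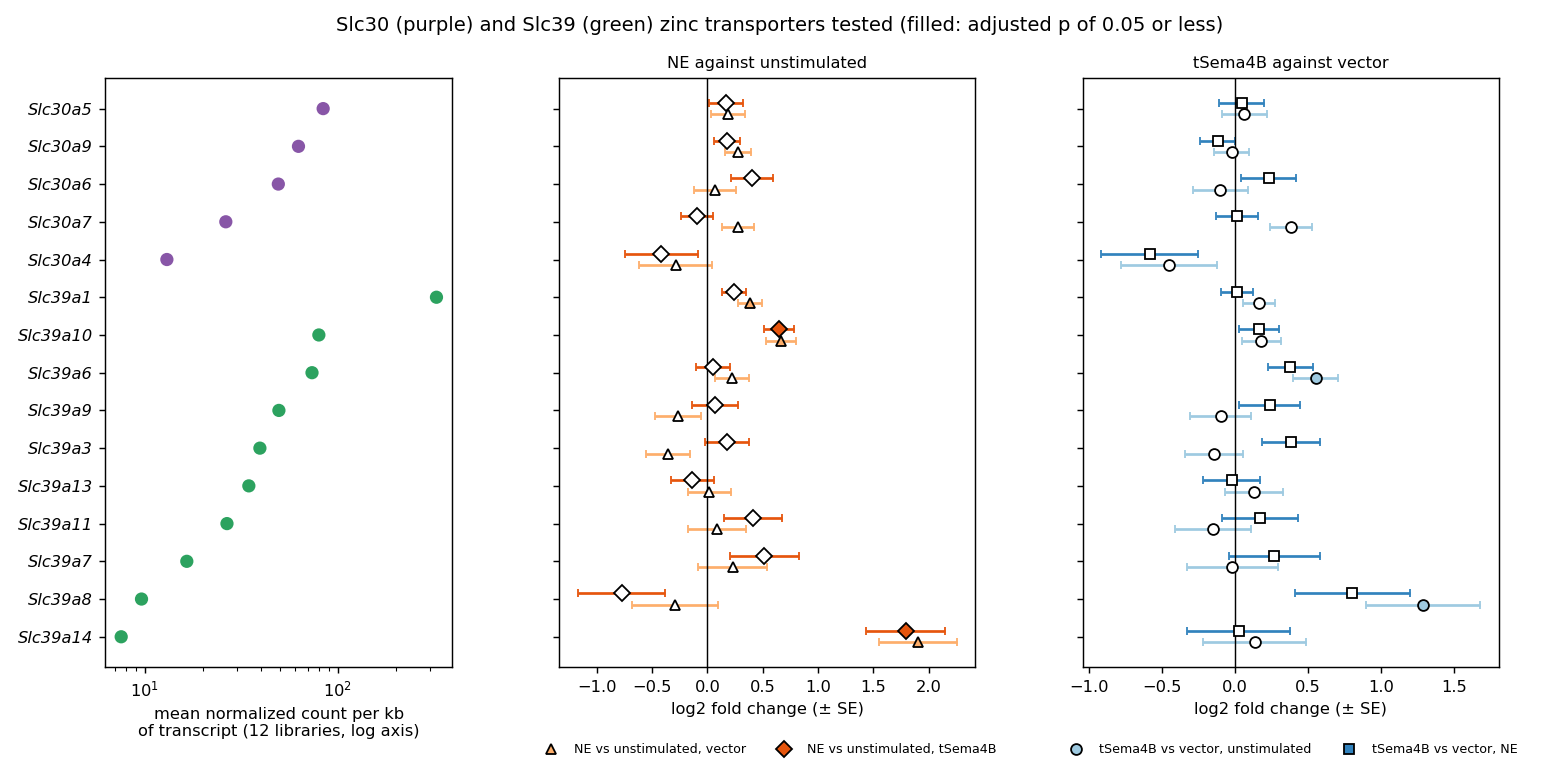
The 5 Slc30 and 10 Slc39 genes tested, ordered within each family by mean level. The left panel gives the normalized count per kb over the 12 libraries on a log axis, and the other panels give log2 fold changes (± SE) from limma, filled where the adjusted p did not exceed 0.05. Slc39a14 is the lowest of the 10 in level and, with NE, the farthest from 0 at 1.90 and 1.79.

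Of 9 genes known as MTF-1 targets, a list that holds Mt1, Mt2, Slc30a1 and Slc39a10, 8 were tested. With NE 4 were higher and 1 lower in each line (of all genes 6.82% and 4.78% in vector cells, 3.68% and 2.58% in tSema4B cells). The 4 higher genes were Mt1, Mt2, Ndrg1 and Slc39a10, the last of which MTF-1 is known to repress. This count thus repeats members already described and mixes targets that MTF-1 induces with 1 that it represses. With tSema4B at rest 2 were higher and 0 lower (5.64% and 7.39%), and after NE 1 was higher and 1 lower (9.79% and 11.2%). Of the genes not yet described, Ndrg1, a stress-responsive gene, was higher in all 4 comparisons (log2 fold changes 0.41 to 0.49), and Csrp1, which encodes a LIM-domain protein of the actin cytoskeleton, was lower with NE in vector (-0.65, limma adjusted p = 0.00856) and tSema4B cells (-0.69, adjusted p = 0.00786). Both were named after their values were seen. The median of the 8 with NE was 0.42 in vector cells and 0.46 in tSema4B cells, and with tSema4B it was 0.23 at rest and -0.23 after NE.

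Metals other than zinc are handled by further genes. Of 18 genes of iron handling 16 were tested, of which NE raised 3 and lowered 3 in vector cells (6.82% and 4.78% of all genes) and raised 1 and lowered 1 in tSema4B cells (3.68% and 2.58%). Among them Slc40a1, which encodes the iron exporter ferroportin, fell with NE from 428 ± 16.6 to 204 ± 11.1 normalized counts in vector cells (-1.07, limma adjusted p = 6.22e-06) and from 325 ± 41.6 to 188 ± 11.5 in tSema4B cells (-0.77, adjusted p = 4.36e-04). With tSema4B 2 iron genes were higher and 3 lower at rest (5.64% and 7.39% of all genes), and 1 was higher and 2 lower after NE (9.79% and 11.2%). Of 11 genes of copper handling 9 were tested, and 1 was lower and 0 higher in each of the 4 comparisons. Of all genes 7.39% were lower with tSema4B at rest, 11.2% with tSema4B after NE, and 4.78% and 2.58% with NE in vector and tSema4B cells, and nothing is read from a count of 1. That gene was Atp7a, a copper-transporting ATPase, with NE (-0.61 in vector and -0.60 in tSema4B cells) and Sod1, the copper- and zinc-binding superoxide dismutase, with tSema4B (-0.50 at rest and -0.88 after NE), both named after their values were seen.

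Glucocorticoids, which all groups had received on days 0 and 2 of differentiation, are known inducers of metallothioneins. All 12 glucocorticoid-responsive genes listed were tested. With tSema4B 6 were lower and 1 higher at rest (7.39% and 5.64% of all genes), and 5 were lower and 1 higher after NE (11.2% and 9.79%). With NE 2 were higher and 0 lower in vector cells (6.82% and 4.78%) and 1 was higher and 2 lower in tSema4B cells (3.68% and 2.58%). The lower genes were Angptl4 (-1.85 at rest and -2.37 after NE), Glul (-1.39 and -1.13), Pdk4 (-1.33 and -1.39), Per1 at rest (-1.28), Lcn2 (-1.21 and -1.20) and Zbtb16 (-0.94 and -1.02), and several of these are also adipocyte genes. Errfi1 was the higher one (0.60 and 0.67), while Tsc22d3 (-0.11 and 0.21), Fkbp5 (0.07 and -0.03) and Klf9 (-0.07 and -0.10), which glucocorticoids are known to induce in many cell types, did not pass. Zbtb16 and these 4 were named after their values were seen. The median of the 12 was -0.53 at rest and -0.35 after NE. Any part of glucocorticoid response in the levels of Mt1 and Mt2 was not tested.

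Marker RNA of other cell types and of differentiation was compared between the lines. All 10 adipocyte markers were lower in tSema4B than in vector cells in both conditions (7.39% and 11.2% of all genes at rest and after NE), with a summed level of 42229 to 48589 normalized counts against 7368 to 10115 at rest, and of 55997 to 67499 against 11361 to 12901 after NE. Ordered by the larger of the 2 changes, the first 5 were Fabp4 (-2.59 at rest and -2.88 after NE), Cidec (-2.74 and -1.56), Cebpa (-2.52 and -1.93), Cd36 (-2.50 and -2.42) and Plin1 (-2.49 and -2.16). With NE 1 adipocyte marker was higher and 2 lower in vector cells (6.82% and 4.78% of all genes), and 3 were higher and 0 lower in tSema4B cells (3.68% and 2.58%). Fabp4 was higher in both lines (0.76 in vector and 0.47 in tSema4B cells), Plin1 (-0.97) and Pparg (-0.71) were lower in vector cells, and Cidec (1.16) and Lpl (1.03) were higher in tSema4B cells. Lpl also passed the interaction (0.82, limma adjusted p = 0.00399). Lpl and Pparg, and Prdm16 and Ppargc1a among the brown adipocyte markers, were named after their values were seen. Of 10 preadipocyte and fibroblast markers 8 were higher at rest and 9 after NE, where 5.64% and 9.79% of all genes were higher (summed 22303 to 22423 against 39819 to 45686 at rest, and 17867 to 19910 against 36753 to 39341 after NE), led by Col3a1 (1.07 and 1.18), Col1a1 (1.03 and 1.06) and Dcn (1.00 and 1.03) for tSema4B against vector cells. With NE 1 of these 10 was higher and 5 lower in each line (6.82% and 4.78% of all genes in vector cells, 3.68% and 2.58% in tSema4B cells), with Ly6a the higher one (0.87 in vector and 1.07 in tSema4B cells) and Col1a1 among the lower ones (-0.30 and -0.27), and the median of the 10 was -0.23 and -0.14. Of 8 brown adipocyte markers 6 were tested, of which Cidea and Cox7a1 met the filter through the vector libraries alone, so the calls of the list are not counted. Cidea was at 52.2 ± 10.8 normalized counts in vector and 6.21 ± 1.37 in tSema4B cells at rest, and at 51.4 ± 6.07 and 9.29 ± 1.82 after NE. Elovl3 was at 45.7 ± 20.6 and 5.64 ± 3.51 at rest and at 92.3 ± 18.4 and 24.6 ± 9.05 after NE. Cox7a1 was at 38.5 ± 5.41 normalized counts in vector and 3.02 ± 2.78 in tSema4B cells at rest, and at 38.4 ± 12.1 and 2.10 ± 2.86 after NE, where its tSema4B libraries held 0 to 5 reads. Prdm16 (-1.17 at rest and -0.31 after NE) and Ppargc1a (0.41 and 0.36) did not pass with tSema4B (limma adjusted p between 0.106 and 0.694). Dio2 was at 0 reads in all libraries, and Ucp1, the uncoupling protein of brown fat, rose with NE from 12.1 ± 2.98 to 276 ± 14.5 normalized counts in vector cells and from 0 to 62.9 ± 3.10 in tSema4B cells. The macrophage genes Ptprc and Adgre1 and the endothelial genes Kdr and Cldn5 had 0 reads. Csf1r, which met the filter through its NE libraries alone, was at 1.37 ± 0.708 normalized counts at rest and 11.5 ± 2.50 after NE in vector cells and at 1.31 ± 1.37 and 15.8 ± 5.42 in tSema4B cells, with 0 to 2 reads per library at rest. Cd14 was at 12.9 ± 3.77 at rest and 32.3 ± 3.90 after NE in vector cells (1.29, limma adjusted p = 0.0464) and at 19.5 ± 8.87 and 20.7 ± 5.99 in tSema4B cells (0.13, limma adjusted p = 0.904). The 7 macrophage markers, of which 2 were tested, summed to 13.1 to 29.4 normalized counts at rest and 25.7 to 59.6 after NE, while the 6 endothelial markers summed to 4.34 to 23.3 in all libraries. Fewer cells of a type and less RNA per cell cannot be told apart in these bulk samples, and the part of these differences in the levels of Mt1, Mt2 and Slc39a14 was not tested.

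The genes whose pattern over the 12 libraries was most like that of a member were found among 8252 genes tested with a mean of at least 50 normalized counts, by Pearson's r of the log2 values. The 12 libraries share the 4 groups, so r was also taken after the group means were removed. For Mt1 the nearest were Snrpd1 (r 0.975), a core protein of the spliceosome, Eif6 (0.972), a translation factor of ribosome assembly, and Rpl36al (0.969), a ribosomal protein. For Mt2 they were Thbd (0.982), which encodes thrombomodulin, Esd (0.967) and Uap1 (0.965). For Slc39a14 they were Gfra1 (0.953), Extl3 (0.949) and Socs3 (0.948), a feedback inhibitor of cytokine signalling, and for Mtf1 they were Smyd2 (0.893), Samd4 (0.831) and Palb2 (0.822). With the group means removed r was 0.903 for Snrpd1, 0.595 for Eif6 and 0.854 for Rpl36al with Mt1, and 0.721 for Thbd, 0.476 for Esd and 0.286 for Uap1 with Mt2. It was 0.896 for Gfra1, 0.830 for Extl3 and 0.560 for Socs3 with Slc39a14, and 0.892 for Smyd2, 0.754 for Samd4 and 0.775 for Palb2 with Mtf1. Between the members themselves, over all 12 libraries, r was 0.82 for Mt1 and Mt2, 0.87 for Mt2 and Slc39a14 and 0.72 for Mt1 and Slc39a14, and with Mtf1 it was 0.45 for Mt1, 0.67 for Mt2 and 0.32 for Slc39a14.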

How the data were processed

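RNAseq values of 12 libraries in 4 groups were used, and each library was assigned from its label. Per the paper and the labels, cDNA made by SMART-Seq2 was turned into Nextera XT libraries, read as 100-base single-end reads, aligned with STAR 2.7.9a to GRCm38.p4 and counted with htseq-count. The signal the authors deposited is the read count divided by the DESeq2 size factor. Annotation and strand setting are not given in the sources used here. In every library 100% of values were whole multiples of 1 read (tolerance 0.01), so whole reads were recovered.

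Genes that reached 10 normalized counts in 3 or more libraries were tested with limma 3.58.1 in R 4.3.3 (pseudocount 1, variance trend on abundance, two-sided, Benjamini-Hochberg adjustment over 11998 genes). The method was tested on simulated data. Members and lists were chosen with earlier results of these data known. By rule, every member was named, with up to 5 genes of each list past both thresholds in order of size, the 3 Slc30 and 3 Slc39 genes highest per kb and the 3 genes most alike to each member. Level per kb used the main GENCODE M21 transcript, chosen after the summed exons of Mt1 were seen to include introns. Alternatives were other pseudocounts, filters and scalings, edgeR 4.0.16 (TMM, quasi-likelihood), DESeq2 1.42.0, only the 6 libraries compared, a replicate block and each library left out.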

Additional observations from a re-analysis of the deposited data

How the results depend on the processing

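Each of 20 member results was refitted under 17 alternatives (22 for the interaction), and the 7 that were past the threshold for Mt1, Mt2 and Slc39a14 with NE in each line and for Mt1 with tSema4B after NE stayed past it in every one. The count of members called moved with single libraries. Without 1 library it ranged from 0 to 1 with tSema4B at rest, from 1 to 2 with tSema4B after NE, and from 0 to 1 in the interaction, where DESeq2 also gave 1, each time through Mt2. Signs reversed only for results that never passed. Leaving out 1 library took Slc39a14 with tSema4B at rest from -0.16 to 0.49, Mtf1 with tSema4B after NE from -0.0895 to 0.16, Slc39a14 with tSema4B after NE from -0.0723 to 0.10 and its interaction from -0.46 to 0.18. Rescaling to the same nuclear total, an alternative chosen after seeing the data, gave -0.0244 for Slc39a14 with tSema4B after NE. The log2 ratio of Mt2 to Mt1 without 1 library lay between 0.73 and 1.00 and between 0.39 and 0.51 with tSema4B at rest and after NE, and between 0.93 and 1.04 and between 0.44 and 0.71 with NE in vector and tSema4B cells. Other scalings moved the median of all genes by at most 0.0935. Same-numbered libraries did not deviate together (r between -0.047 and 0.028 over 18 pairs, 0 over 0.1), and with the replicate block the counts of members called were 1, 1, 3, 3 and 0 and no call changed. Depth limits Slc30a1, which missed the filter and passed in no comparison when fitted without it. It also limits Slc39a14, which had 8 to 18 reads per library at rest.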
